A study of Drosophila melanogaster and Drosophila persimilis and Drosophila pseudoobscura with 5 samples.

Results

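The mitochondrial ribosomal proteins were followed here in 5 Drosophila species, in RNA of Johnston's organ, with which flies hear through the antenna. The members were all rows of the deposited cross-species table whose gene symbol begins with mRpL or mRpS and a digit, and they numbered 51 of 8180 genes. Names beginning with mRpL, for proteins of the large ribosomal subunit, made up 31 of them, and names beginning with mRpS, for the small subunit, made up 20. The melanogaster group was represented by D. yakuba, D. melanogaster and D. simulans, and the obscura group by D. persimilis and D. pseudoobscura. Adult flies were raised at 25 °C, with no genotype or treatment named. The sources used here do not give sex, strain or the number of antennae pooled. Each species had 1 library, so values below lack any replicate check and carry no p-value, and all directions describe these libraries.

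Mitochondria keep a small genome whose messages encode core subunits of the respiratory chain and the ATP synthase. These messages are translated by a ribosome of their own, whose RNA is made in the mitochondrion while all of its proteins are encoded in the nucleus, made in the cytosol and imported. Part of these proteins descend from the ribosome of the bacterial ancestor, and part are found in mitochondrial ribosomes alone. In D. melanogaster, mutants of tko, a small-subunit protein gene, are known for seizures and poor hearing.

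Levels are given as length-corrected signal. From its values it was read as reads divided by gene length and set by the authors to the same upper quartile in each library. The division by length was checked in D. melanogaster only. Differences between some libraries still changed with gene length, as described below, which limits comparisons between libraries for short genes such as the members. Differences are in log2(signal + 1). All 51 members passed the filter of a mean signal of at least 5 over the 5 libraries, as did 5089 genes in all, which form the background below. The tissue is bulk, so fewer cells of a type and less RNA per cell cannot be told apart. Total counts ranged from 7580214 reads in D. simulans to 22391819 in D. melanogaster. Of 10 markers of chordotonal neurons and their support cells, 3 were matched by symbol to the table (nan, nompC and nompA). A marker listed there under an unmatched name would be missed. The summed signal of the 3 was 16.4, 1.42, 15.5, 16.2 and 8.89. In these and all lists of 5 values below, the first 3 are D. melanogaster, D. simulans and D. yakuba, and the last pair is D. pseudoobscura and D. persimilis. Of that sum, nan alone had 14.7, 0.0910, 13.0, 7.80 and 7.78. Markers of other cell types differed widely between libraries. The 3 measured muscle markers summed to 1940, 17921, 8864, 7816 and 42645, and none was at 0. The 4 measured photoreceptor markers summed to 104, 7333, 291, 17.2 and 117, with trp and Arr2 listed at 0 in D. pseudoobscura. The 5 measured fat body markers summed to 18970, 47883, 7160, 5523 and 3736. Yp1, Yp2 and fit were higher in D. simulans than in D. melanogaster, while Lsp2 and to were lower. The 5 olfactory markers summed to 26246, 24217, 35073, 97311 and 47202, with Or88a listed at 0 in D. yakuba. Obp19d gave the largest part of this sum in each library. Orco had 88.0, 77.3, 678, 376 and 348, so that it was highest in D. yakuba, unlike the sum. The 4 glial markers summed to 91.3, 41.8, 164, 61.0 and 60.5.

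The genes of the mitochondrial ribosome were expressed in every library at a moderate level. The median member signal was 72.1, 108, 65.8, 95.2 and 122, lowest in D. yakuba and highest in D. persimilis. The median compared gene stood between 24.6 and 26.7 in the same libraries, and the member median lay between percentiles 73.7 (D. yakuba) and 81.7 (D. persimilis) of the compared genes. Together the members took 0.667%, 0.608%, 0.487%, 0.641% and 0.628% of all signal. The cytosolic ribosome was far more abundant per gene, with a median 5-library mean of 2808 over 50 compared genes against 100.2 over the members.

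**Figure D1:**
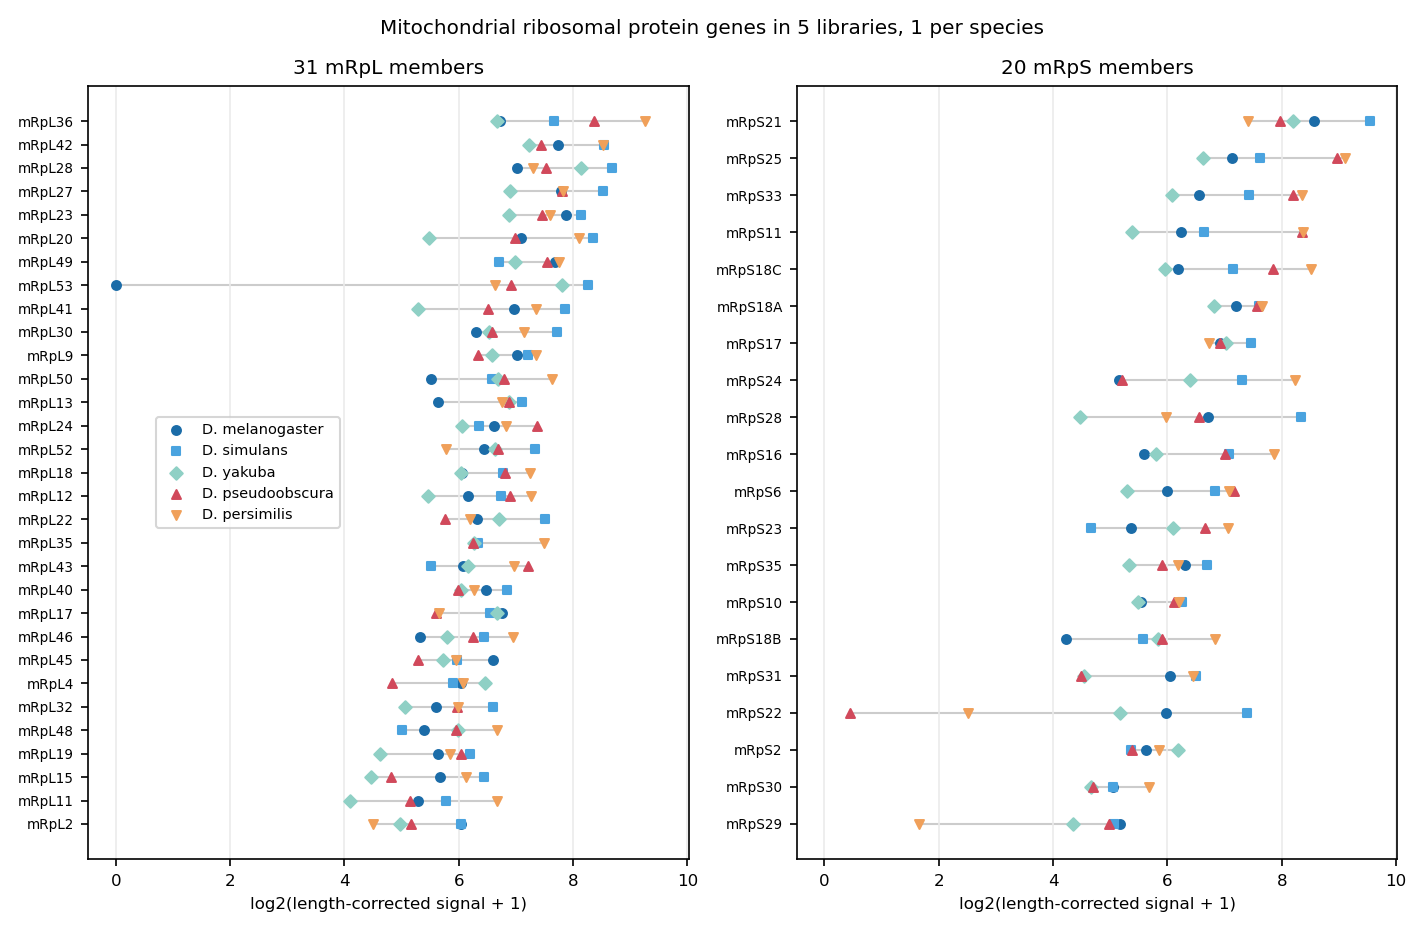
Length-corrected signal of the 51 members on a log2(signal + 1) axis, with large-subunit names on the left and small-subunit names on the right, each ordered by mean; each point is 1 library and the grey line joins the lowest to the highest. Most members lie between 5 and 9, and the points far to the left are mRpL53 in D. melanogaster, mRpS22 in both obscura group libraries and mRpS29 in D. persimilis.

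Within the complex, mean levels spanned from 23.9 (mRpS29) to 367 (mRpS21). mRpS21, a small-subunit protein with a bacterial relative, had a signal of 377, 746, 291, 249 and 169. It was the most abundant member in the first 3 species but not in the obscura group, where mRpS25 and mRpL36 were among those above it. In the D. melanogaster annotation 48.0% of its exon bases overlap CG8870 on the opposite strand. The sources used here do not say whether counting used strand, so reads from both genes cannot be told apart. After mRpS21 and mRpS25, the highest means belonged to the large-subunit proteins mRpL36 (270), mRpL42 (254), mRpL28 (232), mRpL27 (231), mRpL23 (200.3) and mRpL20 (181), and to the small-subunit proteins mRpS33 (190.1) and mRpS11 (174). In D. melanogaster the signal of mRpL27 times its exon length came to 119 per read, against 65.4 for mRpL28, mRpL23 and mRpL20. Its level there is therefore less certain. In bacteria the relative of mRpL27 reaches the peptidyl transferase centre, and that of mRpL23 lies at the exit of the nascent chain.

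The lowest means belonged to mRpS29 (23.9), a GTP-binding protein known in mammals as a death-associated protein, and to mRpS30 (32.7), a mitochondria-specific protein. Above these came mRpL2 (43.2), whose bacterial relative is a core protein of the peptidyl transferase region, mRpL11 (48.8), which lies at the base of the factor-binding stalk, and mRpL15 (50.6). The large-subunit names stood above the small-subunit names in some libraries and not in others. Their medians were 78.0, 106, 75.7, 95.2 and 122 for the large and 63.8, 123, 55.2, 96.8 and 122 for the small subunit. The 31 members counted as having a bacterial relative had a median mean signal of 106, and the 20 counted as mitochondrial only 78.2. This split placed mRpS18B with the mitochondrial-only proteins, but mRpS18A and mRpS18C with the bacterial relatives. Both medians depend on such placements.

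The median member varied less between species than the median compared gene. Before any correction for length, this was seen mainly in the large-subunit names. The range from the lowest to the highest library had a median of 1.66 log2 units over the members and 2.39 over the compared genes. Over genes with a mean signal of at least 20 it was 2.13. A span of 4-fold or more was seen in 19 members, or 37.3%, against 61.7% of compared genes. A span under 2-fold was seen in 5 members, or 9.80%, against 7.72% of compared genes. The subunits differed in this. The median range was 1.58 for the 31 large-subunit names and 2.27 for the 20 small-subunit names. A span of 4-fold or more was seen in 6 of 31 (19.4%) and 13 of 20 (65.0%). Before any correction for length, the small-subunit names were thus near the compared genes (2.39 and 61.7%). The gap between the median ranges of the subunits, 0.69, was 0.26 after the length trend described below was removed and 0.37 without D. persimilis. With that trend removed, the median range was 1.41 over all members and 2.26 over the compared genes. Most of the gap between the subunits was then gone, while the members as a whole still varied less.

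Small-subunit proteins were found at both ends of that scale. The narrowest range was that of mRpS17, whose bacterial relative binds ribosomal RNA early in assembly, with a signal of 120, 175, 129, 120 and 105 and a range of 0.72 log2 units. mRpS10, mRpS2, mRpS18A and the large-subunit protein mRpL40 followed, with ranges of 0.77, 0.82, 0.84 and 0.85. mRpS18A and mRpS30 carry small-subunit names, but in mammals their relatives sit in the large subunit. Moving both there left the median ranges at 1.56 for 33 large-subunit proteins and 2.34 for 18 small-subunit proteins.

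Among members above 0 in all libraries, the widest range was that of mRpS22, a mitochondria-specific small-subunit protein, with a signal of 61.8, 168, 34.9, 0.368 and 4.73. Both obscura group libraries stood below the other 3, and the groups did not overlap. The range was 6.95 log2 units. In D. melanogaster the gene is a single exon of 1341 bases at 3R:27916908-27918248 on the plus strand (BDGP6, a later assembly than that of the deposited counts). A small stretch of it overlaps Boh1 on the opposite strand, and it had 1266 reads with a 95% exact Poisson interval from 1197 to 1338. The sources used here do not say how genes were matched across species, and a mismatched gene cannot be told apart from a low level.

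The other wide ranges were those of mRpS28, mRpS29, mRpS24 and mRpS11. mRpS28 had a signal of 104, 321, 21.1, 93.4 and 61.5, so that D. simulans was the highest and D. yakuba the lowest library, and the range was 3.87. mRpS29 had 35.2, 32.5, 19.5, 30.4 and 2.14, so that D. persimilis alone was low, and the range was 3.53. The obscura pair was split by this gene, since D. pseudoobscura stood among the melanogaster group. mRpS24 had 34.7, 156, 83.1, 36.0 and 299, with a range of 3.07. Its high libraries were D. persimilis and D. simulans, and 55.3% of its D. melanogaster exon bases overlap TBC1d7 on the opposite strand.

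mRpL53 was the only member listed at 0 anywhere. This mitochondria-specific large-subunit protein had a signal of 0 in D. melanogaster and 305, 223, 119 and 97.9 in the others. The D. melanogaster count was 0 reads, with a 95% exact Poisson interval up to 3.69. A preset limit of 3 reads for a count of 0 is worth a signal of 0.237. All of its D. melanogaster exon bases lie within exons of other genes, CG33155 on the same strand, with 57 reads, and AGO1 on the opposite strand, with 4418 reads. A gene without expression and reads left out at overlapping genes cannot be told apart here, and no fold is given against the 0. Of all 51 members, 32 share at least some exon bases with another gene.

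The contrast of the obscura group with the melanogaster group set 3 members apart, all of them small-subunit proteins. The call for higher asked that the lower obscura group library stand at least 2-fold above every melanogaster group library, and the call for lower asked the reverse. By this rule 2 members were higher, or 3.92%, against 4.68% of compared genes, and 1 was lower, or 1.96%, against 5.86% of compared genes. The shares of members were near or below the background.

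mRpS11, whose bacterial relative lies on the platform of the small subunit, had a signal of 74.7, 98.5, 40.8, 326 and 331. Both obscura group libraries lay above all 3 others and within 1.01-fold of each other. The mean difference was 2.28 log2 units, or 4.85-fold. In D. melanogaster the gene has 5 exons at 3R:17072732-17073795 on the plus strand, overlaps no other exon, and had 833 reads (exact Poisson interval 777 to 892). mRpS25, a mitochondria-specific small-subunit protein, had a signal of 138, 196, 97.0, 499 and 547. The groups did not overlap, and the mean difference was 1.91 log2 units, or 3.76-fold. The gene lies at X:14582136-14582982 on the minus strand and had 1356 reads (exact Poisson interval 1285 to 1430). The member called lower was mRpS22, described above, with a mean difference of -4.69 log2 units. Calls for mRpS11 and mRpS22 were made under all the settings tried, while that for mRpS25 was lost when the length trend was removed. Leaving out D. simulans gave 7 members higher and 2 lower, leaving out D. pseudoobscura gave 6 and 2, and leaving out D. persimilis gave 3 and 2. With a library left out the rule is looser for every gene. The share of compared genes called is not given for these counts, so no rise among members can be read from them.

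**Figure D2:**
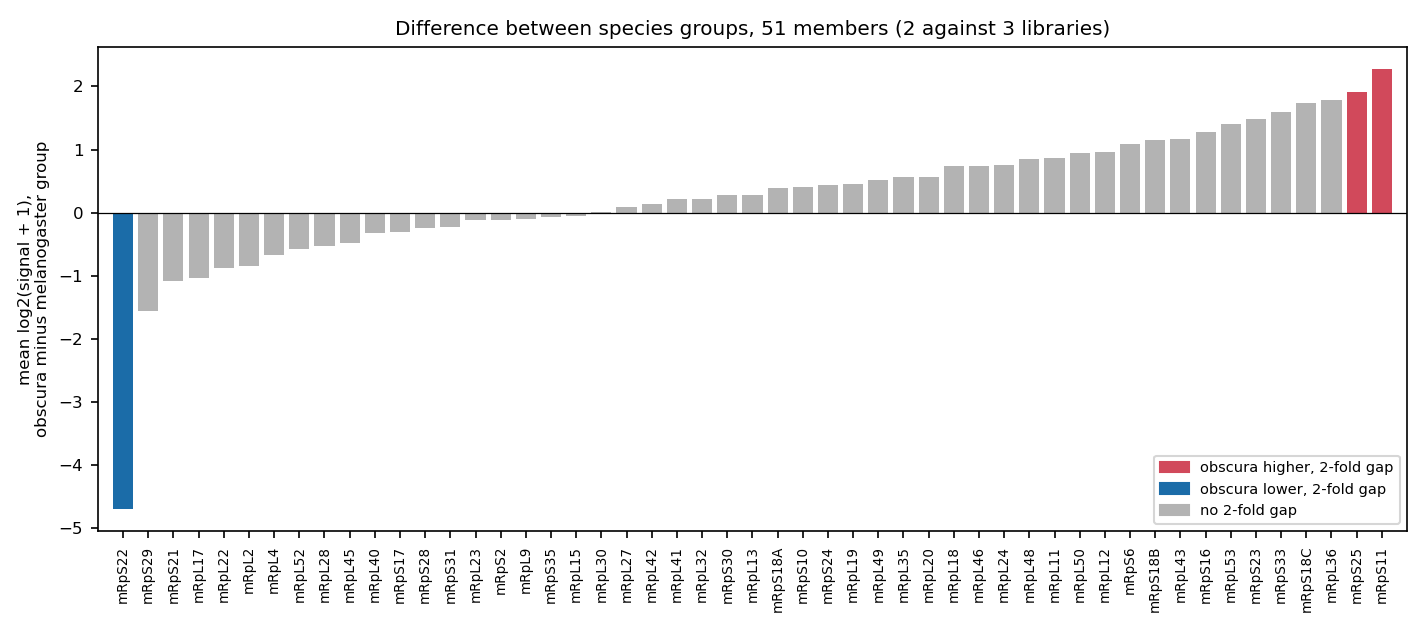
Mean log2(signal + 1) of the 2 obscura group libraries minus that of the 3 melanogaster group libraries, 1 bar per member in order of size, with colour for the members past the 2-fold gap. mRpS11 (2.28) and mRpS25 (1.91) stand at the right end and mRpS22 (-4.69) at the left, and 32 of 51 bars are above 0.

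Without the demand for a 2-fold gap, both obscura group libraries were above all 3 others in 13 members (25.5%, against 16.7% of compared genes) and below all 3 in 4 members (7.84%, against 19.9%). The 4 below were mRpS22, mRpS21, mRpL17 and mRpL22. In mRpL17, the signal was 107, 92.5, 101, 47.7 and 49.3, with each group close within itself. mRpL36 had 104, 201, 101, 328 and 613, and mRpS33 had 93.2, 171, 66.5, 292 and 328, so that in both the obscura group was above the others by less than 2-fold at the nearest libraries. Over all members the median difference was 0.28 log2 units, against -0.06 for all compared genes. With the trend of the difference with gene length removed, as described below, the member median was -0.21, against -0.07 for all compared genes. It was 0.0732 without D. persimilis, 0.595 without D. simulans and 0.597 without D. pseudoobscura.

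At the authors' scaling, more members were highest in D. simulans and D. persimilis than in the other libraries, and more were lowest in D. yakuba than in any other. Of 51 members, 3, 23, 2, 3 and 20 were highest in the 5 libraries, where 20.2%, 23.3%, 18.5%, 18.5% and 19.5% of compared genes were highest. With equal library totals these counts were 18, 8, 5, 9 and 11, so that D. melanogaster led, as it also did among compared genes. Their shares were 38.7%, 10.7%, 21.3%, 19.6% and 9.67%. D. yakuba was the lowest library for 23 members, or 45.1%, and for 15.9% of compared genes. D. melanogaster and D. pseudoobscura were lowest for 9 members each, and D. simulans and D. persimilis for 5 each. After the length trend was removed, D. yakuba was still lowest for 15 members, or 29.4%, against 15.1% of compared genes. D. simulans and D. persimilis were then highest for 10 and 9 of 51 members (against 23.6% and 18.3% of compared genes). D. melanogaster was highest for 13 (against 19.3%).

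**Figure D3:**
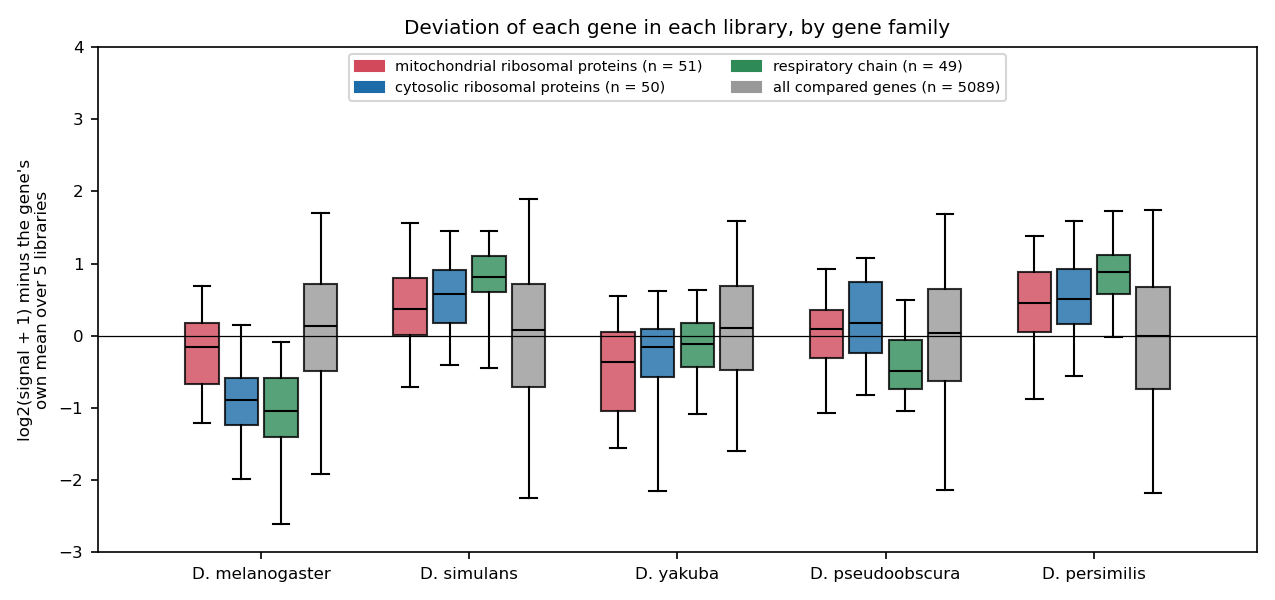
Deviation of each gene's log2(signal + 1) from its own mean over the 5 libraries, for the members, the cytosolic ribosomal proteins, the respiratory chain and all compared genes; boxes give quartiles and medians, and whiskers percentiles 5 and 95. The member median is lowest in D. yakuba (-0.37) and highest in D. persimilis (0.45), while the respiratory chain is lowest in D. melanogaster (-1.04).

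In D. simulans the members stood above D. melanogaster by a median of 0.71 log2 units, against -0.08 for all compared genes. At least 2-fold higher in D. simulans were 13 members, or 25.5%, against 22.5% of compared genes, and none was 2-fold lower, against 27.5%. The members are short, with a median exon length of 740 bases against 1830 over the compared genes. Across 5033 compared genes with a length, the difference between these libraries fell with exon length, with a Spearman correlation of -0.325 as a description over genes, which are not independent. When the linear trend with log length was removed, the member median was -0.10, against -0.09 for all compared genes. Summed muscle markers were also higher in D. simulans than in D. melanogaster (17921 and 1940), as were photoreceptor markers (7333 and 104) and eggshell markers (1133 and 8.37 over 3 genes, each above 0 in both libraries). The summed Johnston's organ markers were lower in D. simulans (1.42 and 16.4), mostly through nan (0.0910 and 14.7). nompC was also lower (0.932 and 1.54), while nompA was higher (0.396 and 0.150). The part of these tissues in the difference was not tested. Equal scaling of library totals shifted the median of all genes to -0.97 and that of the members to -0.18, which is 0.79 above it.

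D. yakuba and D. melanogaster gave the opposite direction. The member median was -0.39 log2 units, against 0.00 for all compared genes, and 17 of 51 members (33.3%) were higher in D. yakuba, against 49.4% of compared genes. At least 2-fold lower in D. yakuba were 8 members, or 15.7%, against 17.9% of compared genes, and at least 2-fold higher were 6, or 11.8%, against 16.6%. The shift was therefore a modest one spread over many members, and the shares past 2-fold were below the background. Exon length bore almost no relation to this difference (Spearman 0.0251 over 5033 genes), and the member median stayed at -0.39 with the length trend removed. With equal library totals it was -0.66, with all compared genes at -0.27. The summed muscle marker signal was higher in D. yakuba than in D. melanogaster (8864 and 1940). This came from Mlc1 and Mlc2, while the third marker, up, was level (42.0 and 42.4). The part of muscle tissue in the difference of the members was not tested.

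**Figure D4:**
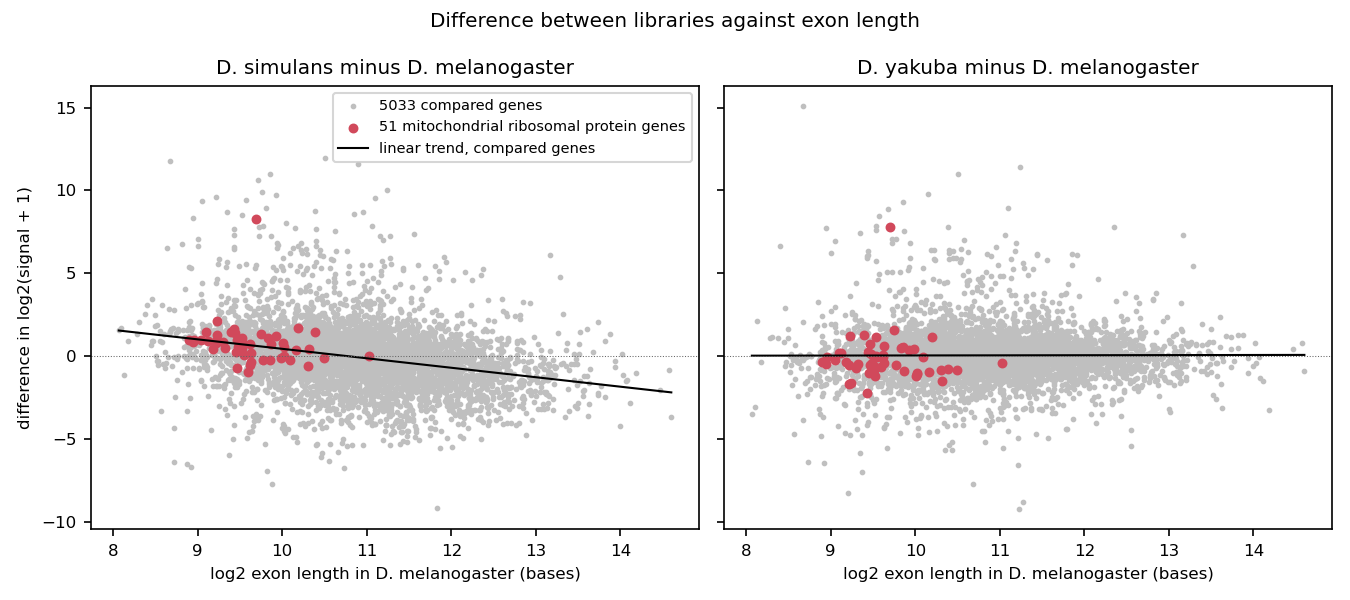
Difference in log2(signal + 1) of D. simulans (left) and D. yakuba (right) from D. melanogaster against log2 exon length in D. melanogaster; grey points are 5033 compared genes, red points the 51 members, and the line is the linear trend over the grey points. The trend falls with length on the left, where the short members lie mostly above 0, and is flat on the right, where members lie mostly below 0; the red point near 8 in both panels is mRpL53, listed at 0 in D. melanogaster.

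Nuclear genes of the respiratory chain, whose complexes also hold the products of the mitochondrial ribosome, gave other values for the same pair of libraries. Of 49 compared nuclear genes of the respiratory chain and ATP synthase, 43 (87.8%) were higher in D. yakuba than in D. melanogaster, with a median of 0.81 log2 units, beside the -0.39 of the members. Cytosolic ribosomal proteins were higher in 42 of 50 (84.0%), with a median of 0.73. Both families are short as well, with median exon lengths of 891 and 861 bases. All 3 families were compared with the same D. melanogaster library. Within each library, the median signal of the members came to 8.35%, 3.25%, 3.81%, 6.46% and 3.26% of that of the respiratory chain. This ratio does not depend on the scaling between libraries. Relative to the median of the cytosolic ribosome, the member median came to 6.44% in D. melanogaster and to between 3.29% and 3.37% in the other 4. The ratio to the respiratory chain was highest in D. melanogaster, which had the least summed muscle marker signal. It was lowest in D. simulans and D. persimilis, which had the most, and the part of muscle tissue in it was not tested. The muscle marker up alone was lowest in D. yakuba (42.0, against 42.4 in D. melanogaster).

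D. persimilis stood above D. pseudoobscura by a member median of 0.36 log2 units, against 0.00 for all compared genes. At least 2-fold higher in D. persimilis were 10 members, or 19.6%, against 18.7% of compared genes, and 1 was 2-fold lower, or 1.96%, against 21% of compared genes. That gene was mRpS29. The median was -0.09 with the length trend removed and -0.06 with equal library totals, where all compared genes stood at -0.41. All 49 respiratory chain genes were higher in D. persimilis, with a median of 1.21.

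Single libraries set 13 members apart from all 4 others by at least 2-fold, or 25.5%, against 44.9% of compared genes. D. yakuba had 5 members alone at the bottom, or 9.80%, against 3.91% of compared genes, and none alone at the top, against 2.08%. They were mRpL20, mRpS28, mRpL41, mRpL11 and mRpL19. mRpL20, whose bacterial relative is needed to assemble the large subunit, had a signal of 135, 326, 43.4, 125 and 274, so that the next library was 2.84-fold higher. mRpL41, a mitochondria-specific large-subunit protein, had 124, 232, 38.2, 89.7 and 162. The gap below the next library was 2.31-fold. The mRpS28 values given above left D. yakuba 2.83-fold below the next library.

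D. melanogaster had 4 members alone at the bottom (7.84%, against 5.44% of compared genes) and none alone at the top (against 3.5%). Beside mRpL53 these were mRpS18B, mRpL13 and mRpL50. mRpS18B, a small-subunit protein, had 17.7, 46.8, 55.8, 59.0 and 113, with 234 reads in D. melanogaster (exact Poisson interval 205 to 266), a gap of 2.55-fold. mRpL13 had 48.9, 137, 117, 117 and 108, with 35.2% of its exon bases shared with CG10602 on the same strand. D. simulans had 2 members alone at the top, mRpS28 and mRpS22 (3.92%, against 5.6% of compared genes), and none alone at the bottom (against 9.75%).

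In the obscura group, D. pseudoobscura had 2 members alone at the bottom, mRpS22 and mRpL4 (3.92%, against 6.41% of compared genes), and none alone at the top (against 2.77%). mRpL4, whose bacterial relative lines the exit tunnel, had 64.7, 58.5, 86.9, 27.6 and 66.5, a gap of 2.08-fold. D. persimilis had 1 alone at the top, mRpL35 (1.96%, against 3.5% of compared genes), and 1 alone at the bottom, mRpS29 (1.96%, against 8.12% of compared genes). mRpL35 had 77.6, 79.6, 75.7, 74.9 and 179, so that 4 libraries lay close together and D. persimilis alone was high, by 2.23-fold over the next. mRpS29 in D. persimilis was 6.52-fold below the next library.

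The D. melanogaster count table allowed the members to be set beside the rest of the complex. The annotation holds 73 symbols of the mRpL and mRpS form, of which 22 are not rows of the cross-species table, and 20 of these 22 were counted in D. melanogaster. The members had from 0 to 2514 reads (mRpL23 the highest), with a median of 833 reads and 1102 reads per kb of exon. The 20 other genes had from 431 to 2171 reads, with medians of 996.5 reads and 1040 reads per kb. The members therefore covered about the same levels as the genes not analysed across species. Together the members took 51986 reads, or 0.232% of the library.

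**Figure D5:**
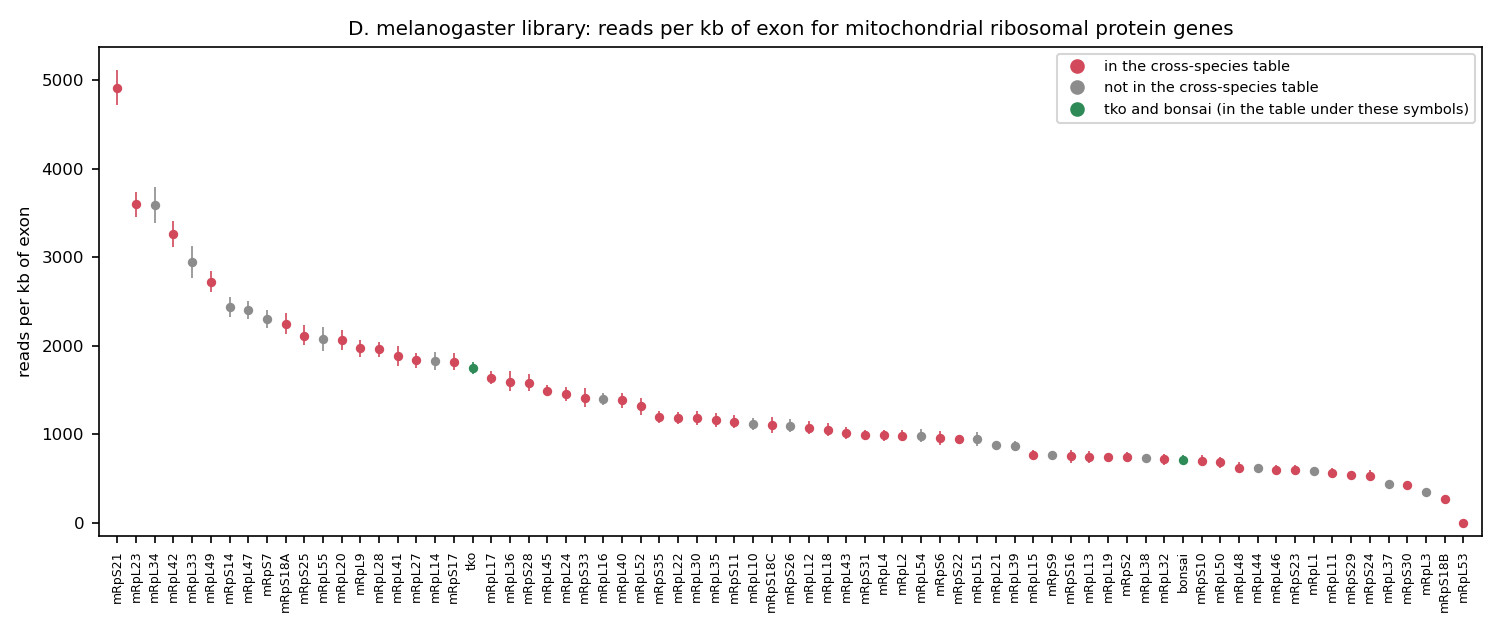
Reads per kb of exon in the D. melanogaster library for the counted mitochondrial ribosomal protein genes in order of level, with 95% exact Poisson intervals, which cover counting error only; colours mark whether a gene is in the cross-species table. mRpS21 is at the left end with 4916 reads per kb and mRpL53 at the right end with 0, and genes outside the table lie throughout the order.

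A pair of small-subunit proteins carry other symbols in the table. tko had a signal of 114, 343, 142, 149 and 83.7, with 2790 reads in D. melanogaster, more than any member. Only the D. simulans library stood well above the others. bonsai, a small-subunit protein named for the small flies of its mutant, had 46.4, 24.0, 39.4, 34.4 and 47.2, a range of 0.95 log2 units. Neither passed the species-group rule.

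Genes that work with the mitochondrial ribosome were measured in part. Of 10 listed translation factors and membrane insertion factors, 5 were compared, and 1 passed the species-group rule. This was mEFTu2, by its name a mitochondrial form of the elongation factor that delivers charged tRNA, with 33.3, 35.6, 34.3, 7.69 and 5.58. It was lower in both obscura group libraries, by a mean of 2.23 log2 units, and the groups did not overlap. The second gene of this factor, mEFTu1, had 159, 184, 143, 92.1 and 54.7, with no 2-fold gap. mEFTs, its exchange factor, was highest in D. melanogaster, with 196, 83.8, 79.5, 100.3 and 62.1. mIF3, an initiation factor, had 6.77, 12.5, 6.47, 16.5 and 71.8, so that D. persimilis alone was high.

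Of 16 mitochondrial aminoacyl-tRNA synthetases and related genes, which charge tRNAs for this ribosome, 11 were in the table and 9 were compared. None passed the species-group rule in either direction, and their median mean signal was 12.4. PheRS-m was the most abundant, with 49.6, 87.6, 37.6, 29.9 and 52.6. Of 16 genes for mitochondrial genome maintenance, transcription and protein quality control, 8 were compared, and none passed in either direction. Hsc70-5, the mitochondrial chaperone, had 106, 93.3, 72.1, 111 and 83.7, a range of 0.61 log2 units. TFAM, which packages mitochondrial DNA, had 44.6, 134, 23.6, 28.7 and 69.8, and mTTF, a transcription termination factor, had 28.7, 54.4, 11.2, 19.7 and 34.5. In both, D. simulans was the highest library and D. yakuba the lowest. mtSSB, which binds single-stranded mitochondrial DNA, had 29.4, 66.0, 36.7, 123 and 181, with the obscura group above the others by less than 2-fold at the nearest libraries.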

How the data were processed

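RNA of Johnston's organ was sequenced in 1 library per species. The submitters' processing notes name TopHat2 2.0.3 and HTSeq. The sources used here do not give their roles or settings, strand use, or how genes were matched across species. The deposited counts are whole reads per gene of each species' own annotation, with no normalization by the authors, and were used for depth and for D. melanogaster levels. The deposited signal has no description in the labels. Its values for 46 of 50 members were within 5% of the median ratio to D. melanogaster reads per exon length. Those of mRpS21, mRpL27, mRpL49 and mRpS30 were outside this. The signal had a 75th percentile of 34.3366 in each library. It was read as reads per length scaled by the authors to a common upper quartile, multiplied here by 1 common factor, 1.09093, and taken as log2(signal + 1), which understates differences of low genes.

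Exon lengths, overlaps and coordinates came from BDGP6, and lengths are those of D. melanogaster for all species. Symbols were matched by current (6465) or older (1622) symbol. Genes with a mean of at least 5 were compared, and zeros entered as low values. Named members were the 10 highest and 5 lowest means, the 5 widest and 5 narrowest ranges, those called between species groups, up to 3 per library and direction in single-library calls, and those at 0, with up to 4 genes per pathway list by mean. mRpL17, mRpL19, mRpL22, mRpL50 and the subunit placement after mammalian structures were chosen after their values were seen. Members and lists were chosen with earlier results of these data known. Species were not taken as replicates. Intervals and the limit of 3 reads cover counting error only. Call rules were run on simulated data with planted shifts larger than the gap and little noise. That run checks the code only and says nothing on how reliable the calls here are. Alternatives covered scaling, the filter, the pseudocount, the gap, the length trend, added genes and leaving out each library. Python 3.11.15, numpy 2.4.6, pandas 2.3.3 and scipy 1.17.1 were used.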

Additional observations from a re-analysis of the deposited data

How the results depend on the processing

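Of 141 recomputed values, 117 stayed near the value reported, 19 moved further and 5 moved and changed sign. The large minus small subunit level also changed sign without D. yakuba. Removing the length trend turned the member medians to -0.21 log2 units between species groups, -0.10 for D. simulans against D. melanogaster and -0.0894 for D. persimilis against D. pseudoobscura, and gave 1 member higher in the obscura group, 8 set apart in a single library, 15 lowest in D. yakuba and a gap of 0.26 between the median ranges of the subunits. Equal library totals gave 0.0133, -0.18, -0.66 (D. yakuba against D. melanogaster) and -0.0577, with all compared genes at -0.33, -0.97, -0.27 and -0.41, and 4 members higher in the obscura group. A gap of 1.5-fold gave 6 higher, 2 lower and 29 set apart in a single library. Leaving out 1 library at a time gave 2 to 7 members higher and 1 to 2 lower, a species-group median from 0.0732 to 0.597, a median range from 1.31 to 1.61, a gap between the ranges of the subunits from 0.37 to 0.82, a large minus small subunit level from -0.03 to 0.26, 13 to 19 members set apart and 24 to 28 lowest in D. yakuba. The counts of members lowest in D. yakuba and the gap between the ranges of the subunits were added after seeing the data. The cause of these moves was not tested. A smaller gap or a library left out loosens the call rules for all genes. Shares of compared genes called under these alternatives are not given here. Exon overlap, rather than depth, limits what the 0 of mRpL53 in D. melanogaster shows, and without replicates no difference can be set against the spread within a species.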
